A study of Emiliania huxleyi CCMP1516 with 36 samples.

Results

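Emiliania huxleyi is a bloom-forming marine coccolithophore, and 2-heptyl-4-quinolone (HHQ) is a small alkylquinolone that some bacteria release as a signal. The libraries described here came from 4 axenic cultures of strain CCMP2090 taken 72 h after treatment with 100 ng/ml HHQ dissolved in DMSO, and from the 4 parent cultures from which the experiment was inoculated. The parent cultures were untreated and sampled at time zero. These 8 libraries are part of a series of 36, and every gene was considered: 26494 passed the filter on low counts and were tested.

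All cultures were batch cultures in seawater medium on a light-dark cycle, and total RNA was sequenced after poly(A) capture in strand-specific libraries. Between the parent cultures and the HHQ cultures, the transfer into new bottles, the elapsed time, DMSO and HHQ all differ, and in this comparison they cannot be told apart. The vehicle cultures at 72 h, which received DMSO alone at the same final concentration, share everything but HHQ with the treated cultures, so their values (4 libraries), and those of the HHQ cultures at 24 h (4 libraries), are given beside the results. The comparisons with parent share the parent libraries, and those of the HHQ cultures at 72 h share the HHQ libraries. The labels do not say which parent culture inoculated which treated culture. The study's design text calls the 4 cultures of each group biological replicates.

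Coccolithophores harvest light with fucoxanthin-chlorophyll antenna proteins, encoded in E. huxleyi by a large family of Lhcf genes. Nuclear DNA is copied by the replicative polymerases alpha, delta and epsilon together with a clamp loader, replication factor C (RFC), and in dividing phytoplankton the transcripts of this machinery typically follow the cell cycle. Carbon leaving photosynthesis passes through glycolysis and the organic acid cycle, or into fatty acids and polyketides. In bulk libraries, fewer cells of a kind and less RNA per cell cannot be told apart. Levels below are CPM, counts relative to library size after scaling by edgeR's trimmed mean of M values, given by library in the order of replicates 1 to 4, and the call rests on edgeR's quasi-likelihood test, with a Benjamini-Hochberg adjusted p below 0.05.

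The parent libraries held 16029632, 14123734, 16310736 and 13123895 estimated counts, and the HHQ libraries 25931289, 13065933, 19171629 and 12426747. Libraries were not equally alike within a group. Parent replicate 1 lay 0.975 to 1.06 from the other parents, as the root mean square of the log2 differences over genes, while parents 2 to 4 lay 0.712 to 0.738 apart. Among the HHQ libraries, replicates 1 and 2 lay 0.746 apart and replicates 3 and 4 lay 0.644 apart, with 0.797 to 1.18 between these pairs. Every HHQ library was farther from the parent mean (1.21 to 1.45) than any parent library was (0.456 to 0.698). The parents lie nearer to it in part because the mean is made from them. The vehicle libraries at 72 h lay 1.28 to 1.45 from the same mean. The scaling factors were 0.859, 1.17, 1.2 and 1.25 in the parents and 1.34, 1.23, 2.13 and 1.74 in the HHQ libraries. The 10 genes with the most counts in a library took 11.4% ± 0.78 of its counts in the parents (SD, n = 4) and 4.38% ± 0.3 in the HHQ cultures.

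Against the parent cultures, 8891 of the 26494 tested genes (33.6%) were called in the HHQ cultures at 72 h, of which 5184 (19.6%) were higher and 3707 (14.0%) lower. The median change over all tested genes was 0.0934 on the log2 scale. The called genes differed by a median of 2.32-fold where higher and 2.46-fold where lower, and 429 higher and 309 lower genes differed by over 10-fold. The balance of directions depends on the scaling: with library totals alone, 8021 genes were higher and 1706 lower, and the median over all genes moved to 0.614. With RLE size factors, another scaling, 4406 were higher and 4396 lower, and with DESeq2 4991 and 4867. The excess of higher genes was thus nearly absent under those alternatives. Every change below is under the main scaling, unless another is named. Tested against a minimum change of 2-fold, 1264 genes were higher (4.77%) and 924 lower (3.49%), 8.26% in all. The 4 HHQ libraries lay wholly above the 4 parents in 20.8% of tested genes and wholly below them in 16.3%. The vehicle cultures at 72 h had 8537 genes called against the same parents (32.2%), and the HHQ and vehicle cultures at 72 h differed from each other in 12243 genes (46.2%).

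Of the 661 tested genes with a symbol, 271 (41.0%) were called, 138 higher (20.9%) and 133 lower (20.1%). Grouped by role, antenna genes held the most lower members (49 of 78), and 8 of 12 replicative polymerase and clamp loader genes were lower. Of the 36 vesicle coat genes 13 were higher and none was lower, although 1 to 3 were lower when any 1 of the libraries except parent replicate 1 was left out. Fatty acid, polyketide and urea cycle genes also had called members in the higher direction only with all 8 libraries.

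**Figure D1:**
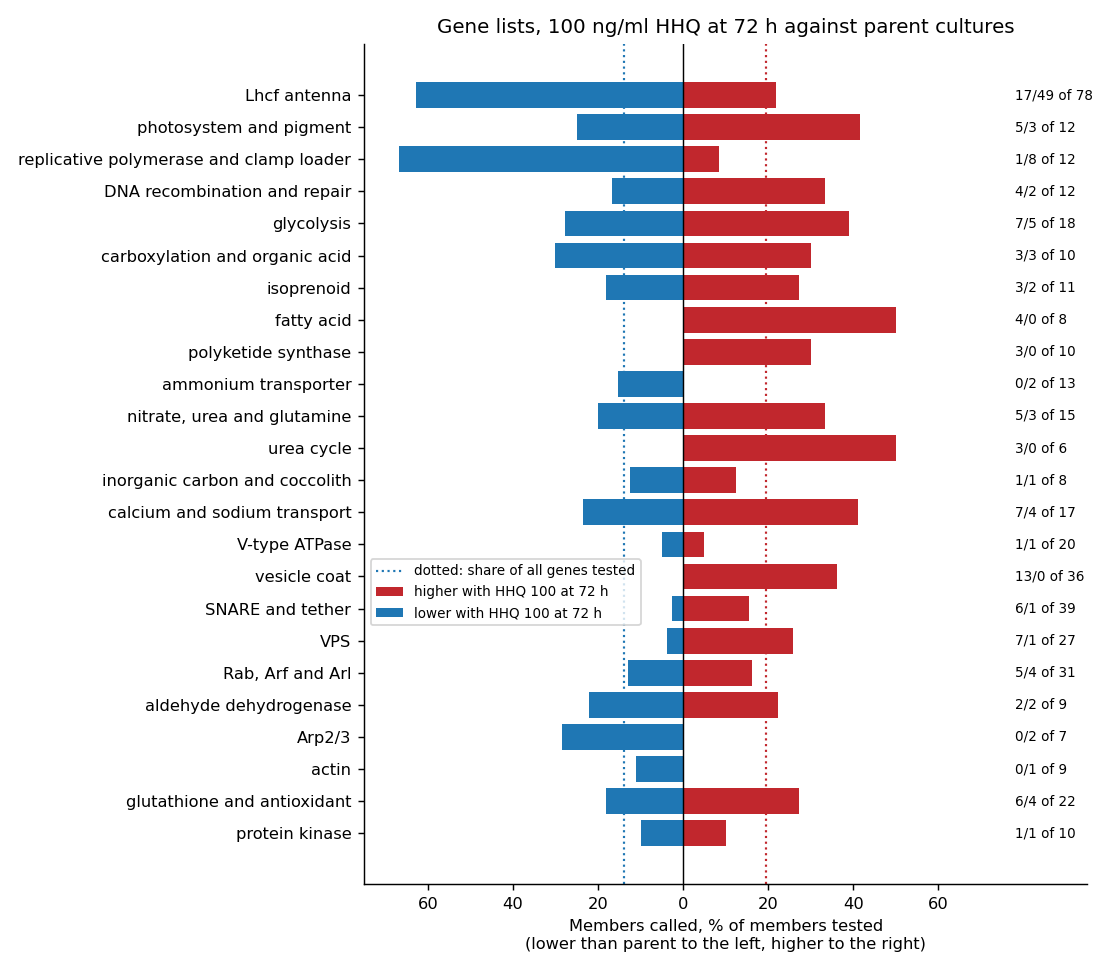
Percent of each list's tested genes called lower (left of 0) and higher (right of 0) in HHQ cultures at 72 h against parent cultures, n = 4 libraries per group, with the counts (higher/lower of tested) at the right and dotted lines at the shares of all tested genes. Antenna genes reach 49 lower and 17 higher of 78, and vesicle coat genes 13 higher and none lower of 36.

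The values of several lists moved with the pair of HHQ libraries used, each pair set against all 4 parents. Ammonium transporters had a median log2 change of -0.183 with replicates 1 and 2 only and of -1.26 with replicates 3 and 4 only, and inorganic carbon genes 0.267 and -0.795. Calcium and sodium transport genes had 3 higher and 1 lower with the first pair and 7 and 7 with the second, and small GTPases had 4 higher and 2 lower against 5 and 11. No isoprenoid gene was lower with the first pair and 5 were with the second, while SNARE and tether genes had 0 and 6 lower. Over all genes, 3200 were higher and 2930 lower with the first pair, and 4222 and 4473 with the second. Calls in the lower direction thus grew over all genes too, and the part of this in the lists was not tested. Antenna genes were lower in 48 and 47 cases, and replicative polymerase and clamp loader genes in 8 and 6.

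The antenna family made up less of the library in the treated cultures. Lhcf genes took 9.58%, 11.9%, 12.4% and 12.2% of all counts in the parent libraries and 2.53%, 2.29%, 3.68% and 4.29% in the HHQ libraries, and the groups did not overlap. The means were 11.5% ± 1.31 and 3.2% ± 0.946 (SD, n = 4 each), a difference of -8.31 percentage points with a two-sided exact permutation p of 0.0286, the smallest that 4 against 4 allows; adjusted over the 3 shares tested it was also 0.0286. Without the 10 genes with the most counts, the difference was -2.87 points. The vehicle cultures at 72 h stood at 9.77% ± 0.992 and the HHQ cultures at 24 h at 3.94% ± 0.486.

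**Figure D2:**
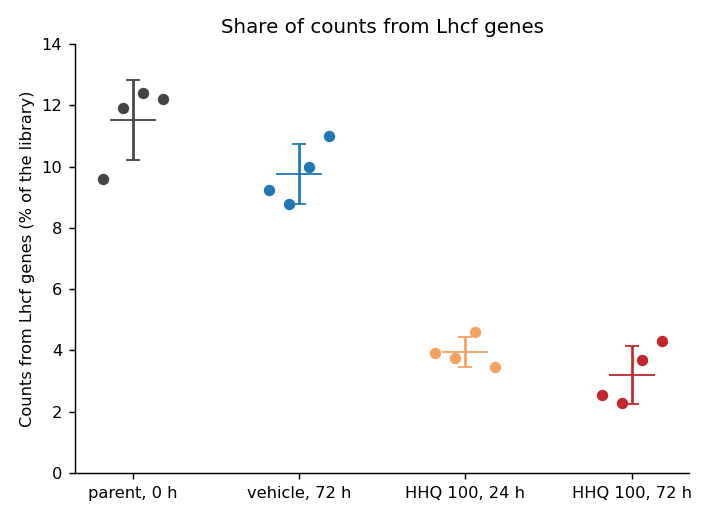
Percent of each library's counts in Lhcf antenna genes, with 1 point per library, a horizontal line at each group's mean and error bars of 1 SD (n = 4). The 4 HHQ libraries at 72 h lie between 2.29% and 4.29%, below every parent library (9.58% to 12.4%).

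Of 85 antenna genes, 78 were tested; 49 fell (62.8%, against 14.0% of all tested genes), 17 rose and 12 did not pass the test, with a median log2 change of -1.54. The members that fell did so by 1.79-fold or more, with a median of 3.84-fold, and 10 fell by over 8-fold. Lhcf32 is the antenna gene that started from the most counts. Its CPM was 28838, 30934, 30948 and 30293 in the parents and 2584, 2619.9, 2603 and 4428 in the HHQ cultures. The parent libraries were close to each other, and the highest HHQ library was replicate 4. The change was -3.31 ± 0.29 (log2, SE; adjusted p = 1.14e-10), a 9.89-fold fall, while the vehicle mean at 72 h was 36134 and the 24 h HHQ mean 2888.

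Several other antenna genes with many counts had the same pattern of libraries. Lhcf66 had 12985, 13814, 14056 and 13635 CPM in the parents and 1015, 1036, 1036 and 1869 in the HHQ cultures, a fall of 11-fold (log2 -3.46 ± 0.29). Lhcf65 went from between 7729 and 11227 CPM to 655, 750, 746 and 1163 (log2 -3.41), and Lhcf21_1 from between 8437 and 11339 to 866, 853, 867 and 1554 (log2 -3.20). In each of these, HHQ replicate 4 was the highest HHQ library and still far below all parents. Lhcf74 fell further, from 101, 85.3, 108 and 76 CPM to 1.44, 0.872, 4.05 and 10.4 (log2 -4.47 ± 0.57, adjusted p = 2.33e-07). HHQ replicate 4 was the highest, and without that library the fall was larger, at -5.44.

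**Figure D3:**
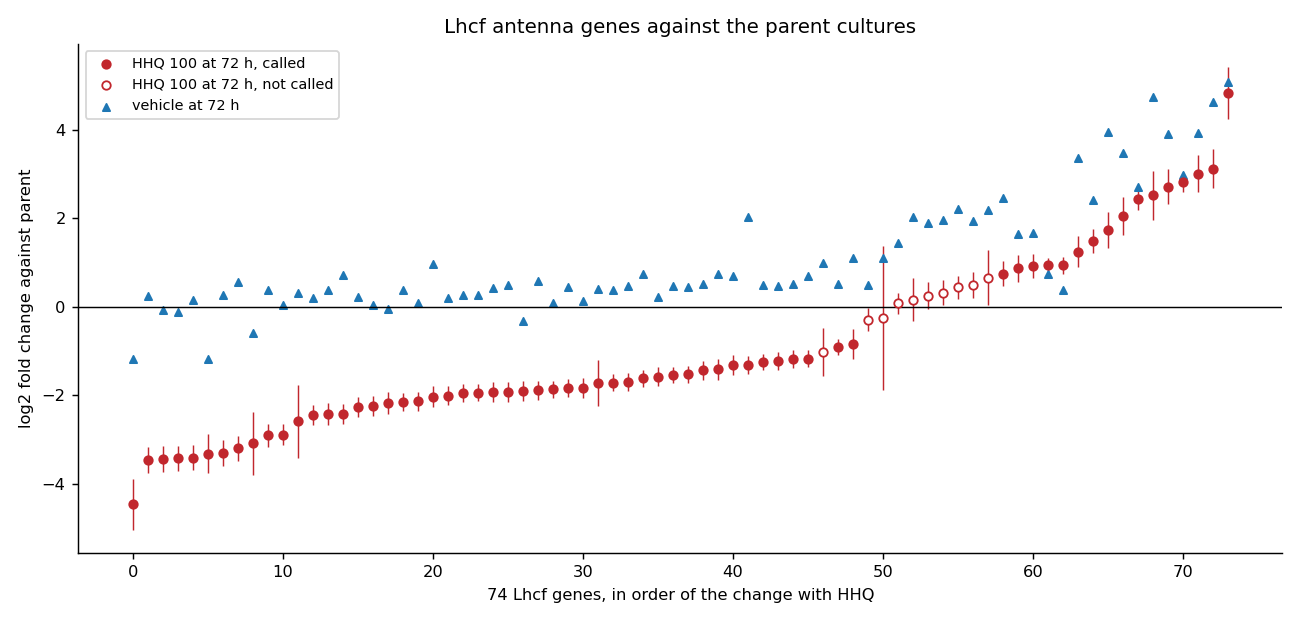
Log2 change against parent of 74 of the 78 tested Lhcf genes, ordered by the change in HHQ cultures at 72 h (circles, filled where called, with bars of 1 SE) and with the change in vehicle cultures at 72 h as triangles; 4 genes with 3 counts or fewer in a group are left off. Circles run from -4.47 (Lhcf74) to 4.83 (Lhcf36), with most of them below 0.

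A minority of the family rose. Lhcf36 had 4.07, 3.08, 1.73 and 3.3 CPM in the parents and 113, 103, 62.6 and 66.8 in the HHQ cultures (log2 4.83 ± 0.59, adjusted p = 1.27e-07). The vehicle mean was 103 CPM, and the difference between HHQ and vehicle had a 95% interval of -1.28 to 0.77 on the log2 scale. Lhcf49 went from between 2.57 and 4.89 CPM to between 25.3 and 32.5 (log2 2.82 ± 0.23), with 31.6 in the vehicle cultures and an interval of -0.59 to 0.29 against vehicle. For these genes the level in the treated cultures was not shown to differ from that of the vehicle cultures. Lhcf37 was listed at 0 in 3 parents and had 3 counts in parent replicate 3, against 104, 70, 27.8 and 20.4 CPM (6314 counts) in the HHQ cultures, a ratio of 1234 with a 95% counting interval of 422 to 5984. Without parent replicate 3 that ratio has no parent count to rest on.

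The risers cluster by name. Among the 24 tested genes numbered Lhcf34 to Lhcf54, a range chosen after the values were seen, 16 were higher and 1 lower than parent (median log2 0.937), while of the other 54 only 1 was higher and 48 were lower (median -1.91). In the vehicle cultures at 72 h, 22 of the 24 were higher than parent and 14 of the 54, against 18.3% of all tested genes. Lhcf39_2 was the member of that range called lower (log2 -1.32 ± 0.2, adjusted p = 6.53e-06). It had 206, 161, 180 and 177 CPM in the parents, 85.5, 72, 58.7 and 73.6 in the HHQ cultures, and 737 in the vehicle cultures. Lhcf36_2 had 29, 28, 35 and 26 counts in the parents and none in the HHQ cultures. That was at least 67.1-fold lower with 3 counts as the floor, but it was not called (adjusted p = 0.102). Its vehicle mean was 11.4 CPM. Against vehicle at 72 h, the whole family had 70 members lower and 1 higher in the HHQ cultures, where 23.6% and 22.6% of all tested genes were. With library totals alone, 50 were lower and 4 higher, while over all tested genes 14505 were higher and 1593 lower in HHQ than in vehicle cultures. Against the HHQ cultures at 24 h, 11 were lower and 1 higher at 72 h, where 3.08% and 4.76% of all tested genes were. Lhcf copies that are near-identical would share reads that the quantification divides between them. The value of a single copy is then less certain than that of the family, and sequences were not compared.

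Other photosystem and pigment genes did not move one way: 5 of 12 tested rose and 3 fell. The share higher was 41.7%, against 19.6% of all tested genes, and the 3 of 12 lower stand against 14.0%. In this list, 3 rose without HHQ replicate 3 or 4 or parent replicate 1 or 2. PSBO-1, a subunit of the oxygen-evolving complex, had 1572, 1252, 1343 and 1206 CPM in the parents and 345, 350, 454 and 608 in the HHQ cultures (log2 -1.61 ± 0.21, adjusted p = 2.31e-07), and PSBO_2 fell by 1.73 on the log2 scale. PSAE, a photosystem I subunit outside the rule for named genes, fell by 1.17 (SE 0.19). All HHQ libraries lay below all parents for these subunits. By contrast GSA1, glutamate-1-semialdehyde aminomutase at the entry of tetrapyrrole synthesis, rose from 64.9, 68.2, 92.8 and 65.3 CPM to 214, 204, 370 and 412 (log2 2.04 ± 0.22, adjusted p = 1.38e-08). The vehicle cultures were higher still at 633 CPM. Violaxanthin de-epoxidase genes VDE2 and VDE3, also named after their values were seen, rose by 1.83 and 1.88 log2, with HHQ replicates 3 and 4 above replicates 1 and 2.

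Most genes for replicative polymerases and the clamp loader were lower than in the parents and higher than in the vehicle cultures. Against parent, 8 of 12 fell and 1 rose in the HHQ cultures at 72 h, with a median log2 change of -1.3. Those shares were 66.7% and 8.33%, against 14.0% and 19.6% of all tested genes. In the vehicle cultures at 72 h, 11 of the 12 were lower than the same parents (13.9% of all tested genes were), with a median of -4.47, and in the HHQ cultures at 24 h also 11, with a median of -4.08, where 19.7% of all tested genes were lower. Tested directly, 10 of the 12 were higher in HHQ than in vehicle cultures at 72 h (median 3.33) against 22.6% of all tested genes, and with library totals alone all 12 were, against the 14505 of 26494 genes given above. In addition, 10 were higher at 72 h than at 24 h of HHQ (median 2.81) against 4.76%. Between those times 7.84% of all tested genes were called.

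RFC2, a clamp loader subunit, had 25, 22.8, 25.4 and 22.3 CPM in the parents and 4.53, 4.55, 4.19 and 4.46 in the HHQ cultures at 72 h. The libraries of each group were tight and far apart (log2 -2.43 ± 0.39, adjusted p = 1.22e-05). Its mean was 0.3 CPM in the vehicle cultures and 0.868 in the HHQ cultures at 24 h, so the HHQ cultures at 72 h were 3.91 log2 above vehicle and 2.37 above the earlier time. POLE1, the catalytic subunit of polymerase epsilon, went from 22.4, 20.6, 22.6 and 21.5 CPM to 3.81, 6.29, 6.33 and 6.08 (log2 -1.95 ± 0.33, adjusted p = 2.1e-05). POLD2, a polymerase delta subunit, went from 5.88, 11.8, 14.4 and 11.6 CPM to 2.83, 3.24, 4.68 and 4.64 (log2 -1.51 ± 0.27). Both had under 1 CPM in the vehicle cultures, 0.393 and 0.332.

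The member that rose was POLA1, the catalytic subunit of polymerase alpha, with 10.7, 7.31, 11.7 and 10.3 CPM in the parents and 12.9, 11.8, 21.9 and 16.8 in the HHQ cultures (log2 0.66 ± 0.24, adjusted p = 0.0295). It lies outside the rule for named genes, and its call was lost without HHQ replicate 3 or 4, or parent replicate 2, 3 or 4. POLA2 (log2 -0.26, adjusted p = 0.534), RFC1 (log2 0.36, adjusted p = 0.121) and POLAI (log2 0.27) did not pass the test.

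**Figure D4:**
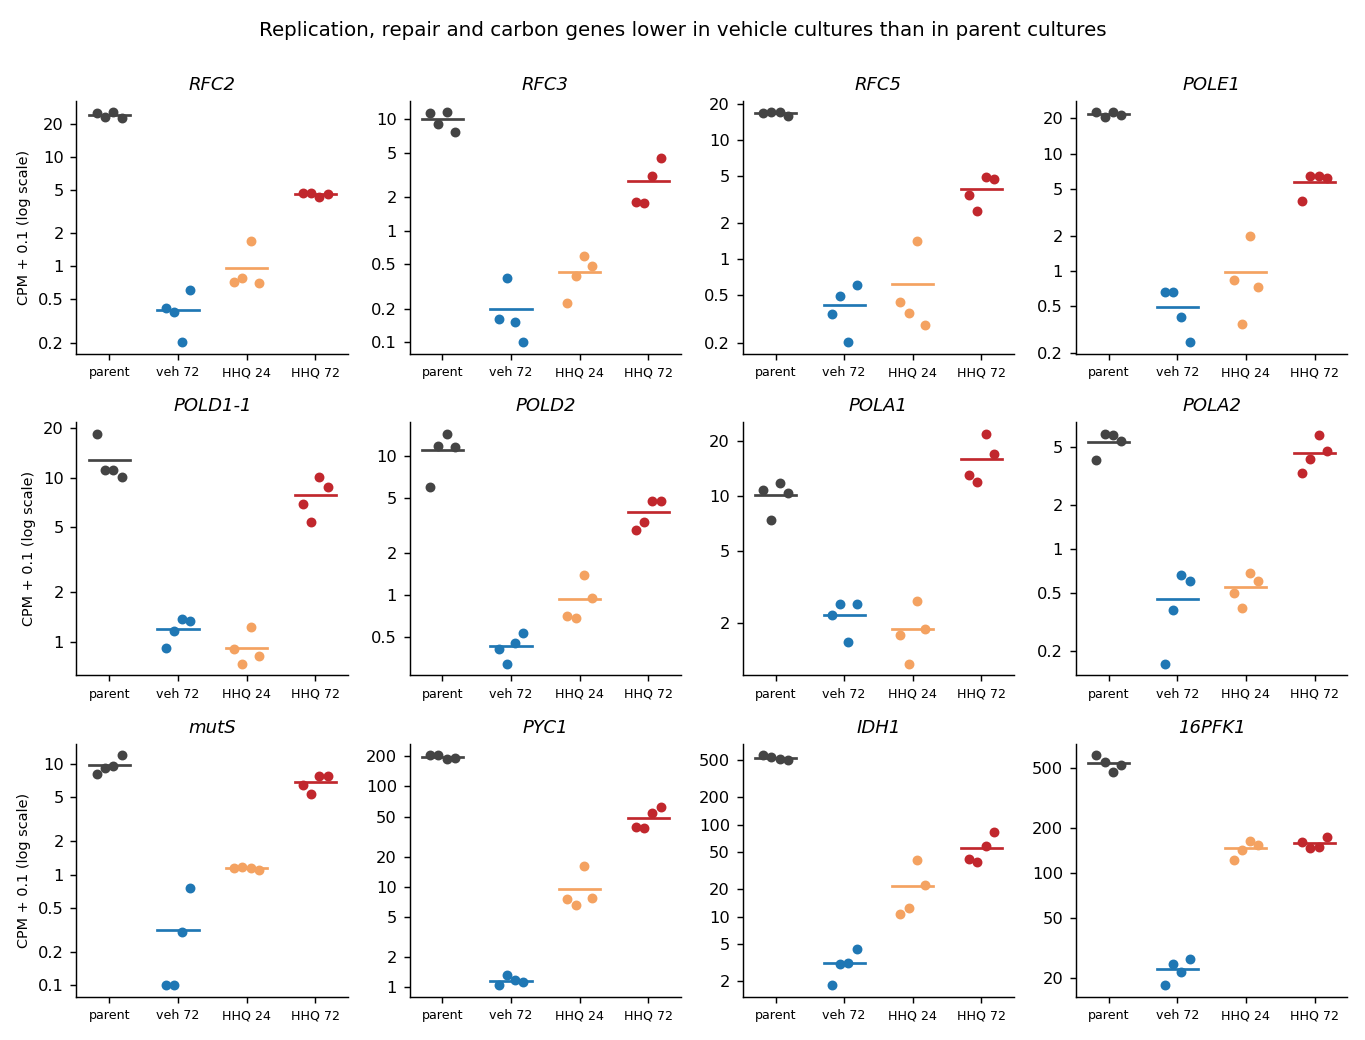
CPM + 0.1 on a log axis for genes of replication, repair and organic acid or sugar metabolism, with points for libraries (replicates 1 to 4 from left to right) and lines at group means, in parent cultures, vehicle at 72 h, HHQ at 24 h and HHQ at 72 h. For RFC2, parents lie at 22.3 to 25.4 CPM, the HHQ cultures at 72 h at 4.19 to 4.55, and vehicle and HHQ at 24 h average 0.3 and 0.868.

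Genes of recombination and repair were mixed, with 4 of 12 higher (2 without parent replicate 2) and 2 lower. The shares with all libraries were 33.3% and 16.7%, against 19.6% and 14.0% of all tested genes. Top6A, a subunit of the topoisomerase VI type, rose from 2.03, 0.785, 1.63 and 1.22 CPM to 3.35, 2.74, 3.26 and 4.41 (log2 1.28 ± 0.39, adjusted p = 0.0103), and the adjusted p was 0.0687 without parent replicate 2. Its partner Top6B fell from between 9.12 and 13.3 CPM to between 3.12 and 5.06 (log2 -1.36 ± 0.24). LIG fell from 61.2, 40.5, 43.2 and 38.1 CPM to 15.7, 14.8, 12.1 and 11.6 (log2 -1.75 ± 0.46), and MER3, a meiotic helicase in other eukaryotes, rose by 1.12 ± 0.3.

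Some genes were not called against parent at 72 h of HHQ while far below it in the vehicle cultures. They were chosen after their values were seen. The conditions were at least 1 CPM on average and a change from parent within 0.5 log2 that was not called. Vehicle also had to be called against both parent and the HHQ cultures. Of 97 such genes with a symbol, 48 were above vehicle and 49 below it. The genes given here are among those above vehicle. mutS, a mismatch repair gene, had 7.99, 9.06, 9.39 and 11.9 CPM in the parents, 6.4, 5.3, 7.75 and 7.66 in the HHQ cultures and 0.213 in the vehicle cultures. Its change from parent was -0.5 ± 0.51 (adjusted p = 0.489), and it was 5.05 log2 above vehicle. In a fit of the 8 libraries alone it was called lower than parent (log2 -0.57, adjusted p = 0.0202), as it was with a replicate block (adjusted p = 0.0301). AO, RhoGDI-2 and 26PFK4 also were not called against parent, at -0.33, -0.1 and 0 log2, and were called against vehicle at 3.0, 2.23 and 2.13. For these genes and mutS, the missing call against parent and the call against vehicle were conditions of the choice. Neither therefore adds support. A p that misses the threshold does not show that these genes were at the parent level.

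Central carbon genes held called members in both directions. Among 18 glycolytic genes 7 rose and 5 fell (3 without parent replicate 1), and among 10 genes of carboxylation and organic acids 3 rose and 3 fell. Those shares were 38.9% and 27.8% in glycolysis and 30.0% each way in the other list, against 19.6% and 14.0% of all tested genes. IDH1, isocitrate dehydrogenase, had 568, 544, 509 and 498 CPM in the parents and 41.7, 38.9, 58.3 and 82.9 in the HHQ cultures (log2 -3.26 ± 0.46, adjusted p = 1.64e-06). PYC1, pyruvate carboxylase, had 204, 205, 186 and 192 CPM in the parents and 39.2, 38, 53.8 and 62.4 in the HHQ cultures (log2 -2.02 ± 0.27, adjusted p = 4.53e-07). In the vehicle cultures both were close to absent, at 3 ± 1.08 and 1.06 ± 0.121 CPM (SD, n = 4), so the HHQ cultures were 4.21 and 5.5 log2 above vehicle.

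16PFK1, a phosphofructokinase, fell from between 475 and 612 CPM to 162, 147, 150 and 175 (log2 -1.77 ± 0.29), with 22.8 in the vehicle cultures. ICL1, isocitrate lyase of the glyoxylate cycle, went from 1138, 1346, 1447 and 1361 CPM to 434, 586, 290 and 469 (log2 -1.57 ± 0.2, adjusted p = 1.99e-07). The vehicle mean of ICL1, 1213 CPM, lay within the range of the parents. The glycolytic HXK1, G6PI1, PGK_1 and PGK_2 fell by 1.72, 0.79, 1.04 and 0.55.

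On the rising side, ENO1, enolase, had 10.8, 8.03, 7.29 and 15.9 CPM in the parents and 475, 384, 391 and 412 in the HHQ cultures (log2 5.30 ± 0.32, adjusted p = 2.96e-14). The vehicle mean was 401 CPM, and the interval of the difference from vehicle was -0.49 to 0.59. GAPN, a non-phosphorylating glyceraldehyde-3-phosphate dehydrogenase, had 0.363, 0.725, 0.816 and 1.04 CPM in the parents and 467, 359, 283 and 229 in the HHQ cultures (log2 8.80 ± 0.76, adjusted p = 1.24e-10). It rose in the vehicle cultures less far, to 64.2 CPM, and the HHQ cultures were 2.38 log2 above them. FBA2, a fructose-bisphosphate aldolase, had 2 counts over the parents and 340 over the HHQ cultures, a ratio of 99.7 with a counting interval of 27.4 to 826. PGAM, PYRK2, 26PFK3 and PGK1 rose by 1.64, 1.57, 0.97 and 0.69 log2, and PYC, NAD-ME_1 and FH by 1.11, 0.97 and 0.74.

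The fatty acid genes called with all 8 libraries were all higher than parent. Of 8 fatty acid genes 4 rose, against 19.6% of all tested genes, and none fell. Without HHQ replicate 2 or parent replicate 2 or 3, 1 fell. With HHQ replicates 3 and 4 only, 4 rose and 2 fell. FADS1, a fatty acid desaturase, had 25.6, 31.8, 32.1 and 31.5 CPM in the parents and 164, 140, 216 and 194 in the HHQ cultures (log2 2.56 ± 0.21, adjusted p = 2.45e-11), with 34.7 in the vehicle cultures, so the HHQ cultures were 2.36 above vehicle. FADS2 rose by 2.61. ACC-1, acetyl-CoA carboxylase, had 226, 305, 219 and 346 CPM in the parents and 1587, 1306, 1389 and 1506 in the HHQ cultures (log2 2.40 ± 0.23). The vehicle mean was 1238 CPM and the interval against vehicle was -0.22 to 0.67, so unlike the desaturase this rise was not shown to differ from that of the vehicle cultures.

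Of 10 polyketide synthase genes 3 rose (30.0%, against 19.6% of all tested genes) and none fell, with 1 falling without HHQ replicate 2 or parent replicate 3. PKS5 had 0.654, 1.27, 0.969 and 2.08 CPM in the parents and 40.2, 45.4, 47.6 and 35.9 in the HHQ cultures (log2 5.08 ± 0.36, adjusted p = 1.54e-12), with 2.94 in the vehicle cultures. PKS8 rose by 2.11 from between 13.8 and 22.8 CPM. PKS3 had 56.2, 52.3, 58.8 and 54.3 CPM in the parents and 186, 177, 163 and 197 in the HHQ cultures (log2 1.70 ± 0.24), but 1166 in the vehicle cultures, so it was 2.69 log2 below vehicle. Thus PKS5 and PKS3, both above parent, lay on opposite sides of the vehicle cultures. In isoprenoid synthesis 3 of 11 genes rose (DXPR1, GGPS and HMGR1, by 1.01, 0.88 and 0.71) and 2 fell (HMGS1 and HMGS2, by 1.09 and 1.04). Those shares were 27.3% and 18.2%, against 19.6% and 14.0% of all tested genes. Only 1 isoprenoid gene fell without parent replicate 1, and 4 fell without HHQ replicate 2.

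**Figure D5:**
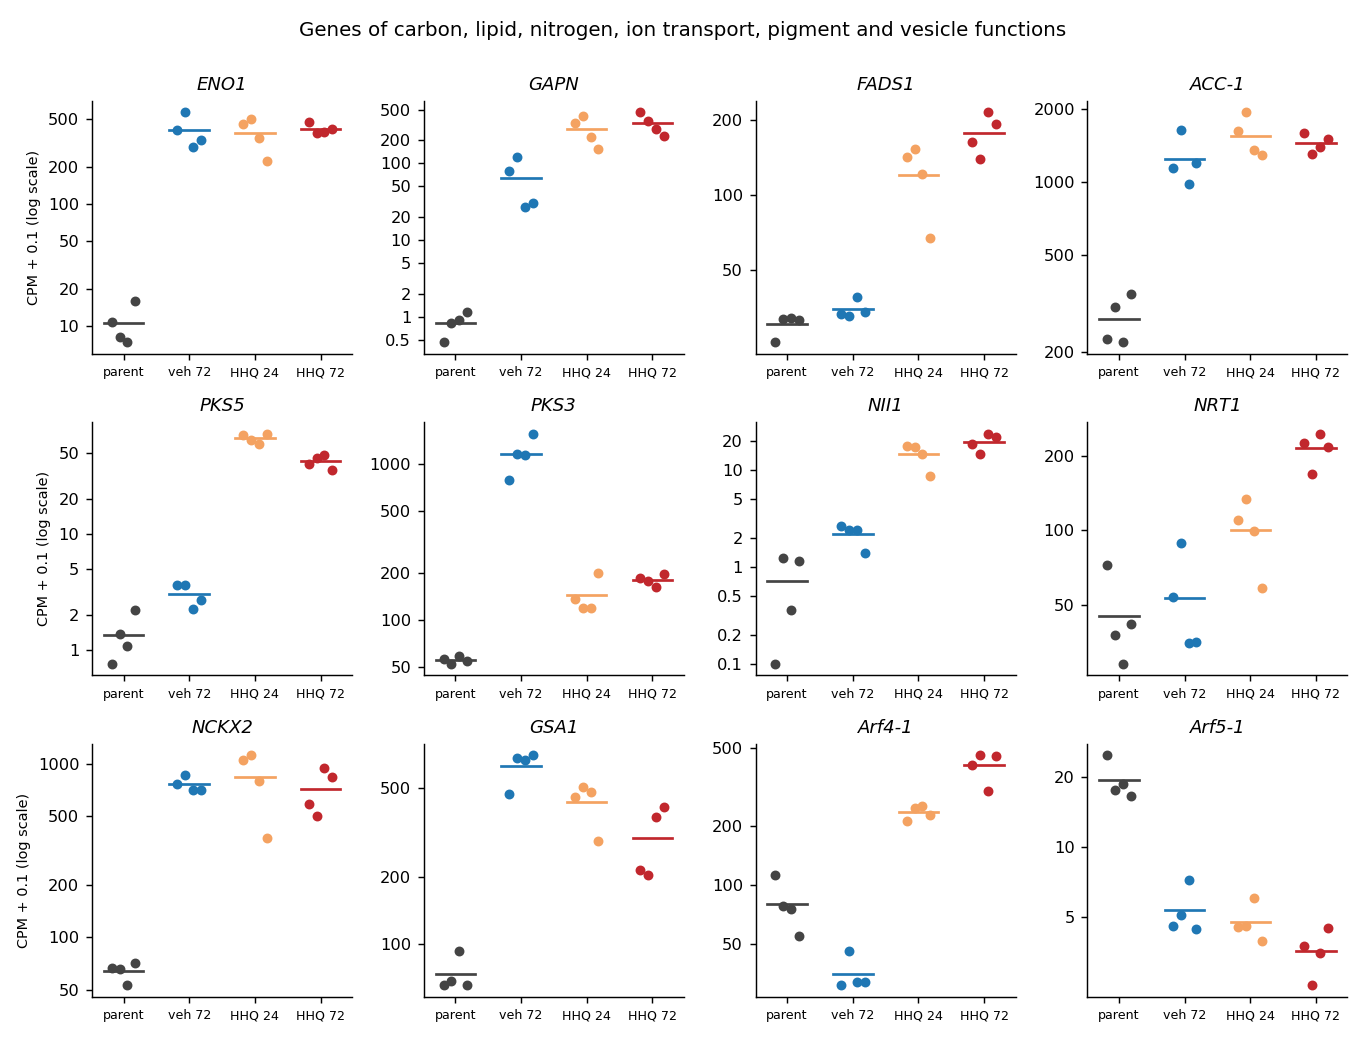
CPM + 0.1 on a log axis for genes that rose or fell from parent to HHQ at 72 h, with points for libraries (replicates 1 to 4 from left to right) and lines at group means in parent cultures, vehicle at 72 h, HHQ at 24 h and HHQ at 72 h. ENO1 averages 401 CPM in vehicle and lies between 384 and 475 in HHQ at 72 h, while PKS3 averages 1166 CPM in vehicle and lies between 163 and 197 in HHQ at 72 h.

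Of 15 genes of nitrate, urea and glutamine handling 5 rose and 3 fell (33.3% and 20%, against 19.6% and 14.0% of all tested genes), and of 6 urea cycle genes 3 rose (ASL1, ASL2 and ARG1, by 0.61, 0.85 and 0.51). NII1, nitrite reductase, had 0, 1.15, 0.255 and 1.04 CPM in the parents and 18.3, 14.6, 23.7 and 21.9 in the HHQ cultures (log2 4.98 ± 0.46, adjusted p = 4.34e-10), with 2.11 in the vehicle cultures. NRT1, a nitrate transporter, rose from 72.1, 37.4, 28.7 and 41.5 CPM to 226, 169, 246 and 217 (log2 2.26 ± 0.37). Nitrite reductase and the transporter thus rose in every HHQ library above every parent.

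Among glutamine synthetases, GLN5 had 1.67, 0.966, 1.12 and 0.734 CPM in the parents and 10.9, 20.6, 4.68 and 4.87 in the HHQ cultures (log2 3.19 ± 0.39), with replicate 2 the highest; without it the change was 2.52. GLN3 had 1.45, 1.69, 1.48 and 1.29 CPM in the parents and 4.85, 3.49, 3.46 and 4.69 in the HHQ cultures (log2 1.48 ± 0.36, adjusted p = 0.0016), whereas the vehicle mean was 0.373. GLN4 fell by 0.77 and the urea transporter DUR3 by 2.61, from between 0.509 and 2.08 CPM to between 0.0865 and 0.557. NAR2 rose by 1.02 and NAR4 fell by 0.92. Of 13 ammonium transporters 2 fell, AMT11 by 1.96 (adjusted p = 0.0345) and AMT21 by 0.92 (adjusted p = 0.0499). That share of 15.4% was near the 14.0% of all tested genes. The call of AMT11 ended without HHQ replicate 2 or 3 or parent replicate 1 or 3, and that of AMT21 without HHQ replicate 3 or 4 or parent replicate 1. ARG1 was not called without HHQ replicate 1 or parent replicate 4, and ASL2 without 6 of the 8 libraries in turn, HHQ replicate 2 and parent replicate 3 excepted.

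Of 17 calcium and sodium transport genes 7 rose (4 without HHQ replicate 3 or parent replicate 2) and 4 fell, shares of 41.2% and 23.5% against 19.6% and 14.0% of all tested genes. NCKX2, a potassium-dependent sodium/calcium exchanger, had 66.3, 65.4, 52.8 and 70.7 CPM in the parents and 588, 501, 946 and 841 in the HHQ cultures (log2 3.49 ± 0.28, adjusted p = 1.78e-11). The vehicle mean was 766 CPM, with an interval of -0.61 to 0.42 for the difference from vehicle. NHA1, a sodium/proton antiporter, rose from 0.654, 1.15, 1.12 and 2.02 CPM to 8.91, 6.98, 11.6 and 11.1 (log2 2.95 ± 0.3), with 2.53 in the vehicle cultures. NHA2, NHA4, NAH1, NAH2 and CAX3 rose by 0.98, 0.88, 0.75, 0.94 and 0.52, and CAX4, CAX5, NCX1 and TPC1 fell by 1.23, 0.76, 1.42 and 1.28. CAM1, calmodulin, fell from 2186, 1472, 1487 and 1281 CPM to 473, 536, 322 and 559 (log2 -1.77 ± 0.28), with 668 in the vehicle cultures and an interval of -1.06 to 0.07 for the difference from vehicle.

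Of 8 genes of inorganic carbon handling 1 rose, AE3, and 1 fell, CA1. Each was 12.5% of the list, below the 19.6% and 14.0% of all tested genes. CA1, carbonic anhydrase, had 94.3, 41.1, 36.5 and 35.7 CPM in the parents and 17.3, 19.8, 10.6 and 13.3 in the HHQ cultures (log2 -1.77 ± 0.52, adjusted p = 0.00871). Parent replicate 1 decides that call, and without it the change was -1.31 (adjusted p = 0.0659). The rise of AE3 by 0.68 was lost without HHQ replicate 3 or 4, or parent replicate 2, 3 or 4.

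GPA and 2 bicarbonate transporter genes of that list differed between the 2 pairs of HHQ libraries. GPA, which encodes a coccolith-associated protein, had 1186, 819, 831 and 842 CPM in the parents and 1038, 1499.9, 230 and 400 in the HHQ cultures, and it was not called (adjusted p = 0.762). The HHQ libraries of replicates 1 and 2 averaged 4.03 times those of replicates 3 and 4. SLC4-1, a bicarbonate transporter, had 351, 167, 158 and 143 CPM in the parents and 297, 425, 52.1 and 103 in the HHQ cultures (adjusted p = 0.91), with means of 361 and 77.5 in the pairs, and SLC4-2 had 359 and 70.5. Other genes of the list did not follow: the ratio of the pairs was 0.965 for Gamma_CA_1, 0.995 for Gamma_CA_2 and 0.756 for AE3. AMT8 and the kinase CIPK3 differed between the pairs by 4.42-fold and 5.1-fold. These genes were chosen after their values were seen, and the part of the pairs in other results was not tested.

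Among vesicle traffic genes, most members of each list were not called. Of 36 coat genes 13 rose (36.1%, against 19.6% of all tested genes) and none fell, with a median log2 change of 0.29, against 0.0934 for all genes. The vehicle cultures had 4 higher (11.1%) and 5 lower (13.9%) against the same parents, where 18.3% and 13.9% of all tested genes were. The adaptor subunit AP2A-1 had 89.1, 90.3, 89 and 90.9 CPM in the parents and 139, 136, 148 and 154 in the HHQ cultures (log2 0.68 ± 0.12, adjusted p = 3.78e-05), with 85.1 in the vehicle cultures. COPII coat genes SEC23A, SEC23C, SEC24A, SEC24B and SEC31 rose by 1.03, 0.82, 0.74, 0.85 and 0.51. Both groups of AP2A-1 libraries were tight and did not overlap. Apm2-3, another adaptor subunit of the list, was listed at 0 in the parents. With library totals alone, 24 of the 36 coat genes were higher and none lower in the HHQ cultures, and 2 were higher and 23 lower in the vehicle cultures, so both counts move with the scaling. Of all 26494 tested genes under that scaling, 8021 were higher and 1706 lower in the HHQ cultures. In the vehicle cultures 1527 were higher and 5807 lower. Leaving out single libraries gave 9 to 13 higher and up to 3 lower, with none lower only without parent replicate 1.

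Of 39 SNARE and tether genes 6 rose (15.4%, below the 19.6% of all tested genes) and 1 fell, and 2 or 3 fell without HHQ replicate 1 or 2 or parent replicate 2 or 4. Of 27 VPS genes 7 rose (25.9%) and 1 fell, and 3 to 5 rose without any 1 of the 8 libraries. COG3, a Golgi tether subunit, rose from 1.31, 2.48, 2.96 and 3.37 CPM to 5.74, 6.42, 6.4 and 6.59 (log2 1.30 ± 0.21). COG2 and COG4 each rose by 1.2, TRS85 by 1.0 and Vps33-2 by 0.91. Vps45, of the SM family of SNARE regulators, rose from between 24.3 and 35 CPM to between 45 and 59.2 (log2 0.76 ± 0.14). VAMP7-1, a SNARE, fell by 0.67, and VPS60, of the ESCRT-III family, fell from 34.9, 20.3, 21.5 and 15.4 CPM to 7.87, 9.97, 3.06 and 7.01 (log2 -1.73 ± 0.35).

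Of 31 small GTPases 5 rose and 4 fell (2 without HHQ replicate 4 or parent replicate 1), shares of 16.1% and 12.9% against 19.6% and 14.0% of all tested genes. Arf4-1 had 112, 78.3, 75.4 and 54.5 CPM in the parents and 409, 458, 301 and 455 in the HHQ cultures (log2 2.34 ± 0.25, adjusted p = 7.49e-09), while the vehicle cultures were lower than parent, at 35.2 CPM (log2 -1.19). Arf4-2, a copy by its name, rose by 2.30. Arf5-1 fell from 24.7, 17.4, 18.5 and 16.5 CPM to 3.63, 2.43, 3.38 and 4.36 (log2 -2.47 ± 0.38). Arf5-2 fell by 1.95, and the COPII GTPases Sar1b and Sar1c, which are on no list, by 1.53 and 2.28. These were not called against vehicle, and the intervals of the difference were -0.36 to 1.04 for Arf5-2, -0.46 to 0.43 for Sar1b and -0.78 to 1.06 for Sar1c. Where a gene was named for being near vehicle and not called against it, the missing call adds no support. Among vacuolar ATPase genes 1 of 20 rose, ATPVa2 by 0.82, and 1 fell, ATPVG2 by 0.52 (adjusted p = 0.0498). Each was 5.0% of the list, below the shares of all tested genes. ATPVG2 was at 0.01 with library totals alone and was not called without HHQ replicate 3 or 4 or parent replicate 1.

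Aldehyde dehydrogenases had 2 of 9 higher and 2 lower (22.2% each way, against 19.6% and 14.0% of all tested genes). ALDH10 fell from 335, 305, 284 and 277 CPM to 81.6, 78.8, 75.8 and 103 (log2 -1.82 ± 0.3), with 37.4 in the vehicle cultures, and ALDH7 fell by 1.73. ALDH4 rose by 0.65 (adjusted p = 0.0489) and ALDH12 by 0.86, and both calls were lost when any 1 of the 8 libraries was left out. Of 22 glutathione and redox genes 6 rose and 4 fell (27.3% and 18.2%, against the same shares of all tested genes), and 2 to 4 rose without any 1 library. SOD2A, superoxide dismutase, fell by 0.88 and TXR1 by 0.67, while GGCT1, GSHS1 and GPX4 rose by 0.93, 0.71 and 0.66. With library totals alone, neither SOD2A nor TXR1 was called. GGCT1 was not called without parent replicate 2.

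Of 9 actin genes 1 fell, ACT-6, from 1954, 1684, 1462 and 1472 CPM to 923, 800, 614 and 881 (log2 -1.03 ± 0.2). Of 7 genes of the Arp2/3 complex, which branches actin filaments, 2 fell, ARP3 by 0.81 (adjusted p = 0.0307) and ARPC5-1 by 0.74 (adjusted p = 0.0417). Among 10 kinase genes MAPK3 rose by 0.72 (adjusted p = 0.0212) and CIPK1 fell by 1.2 (adjusted p = 0.0353), with 222, 186, 51.2 and 112 CPM in the HHQ libraries. The shares lower were 11.1% for actin, 28.6% for Arp2/3 and 10.0% for kinases, against 14.0% of all tested genes. The share of kinases higher was 10.0%, against 19.6%. The call of ARP3 was lost without HHQ replicate 3 or parent replicate 1, and that of CIPK1 without HHQ replicate 3 or 4 or parent replicate 1. ARPC5-1 was not called without HHQ replicate 2, 3 or 4 or parent replicate 1 or 3, and MAPK3 without HHQ replicate 1, 2 or 4 or parent replicate 2, 3 or 4.

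Some genes stood on opposite sides of parent in HHQ and vehicle cultures. PTA1 had 42.4, 23.8, 29 and 30.4 CPM in the parents, 9.09, 11, 5.2 and 5.57 in the HHQ cultures (log2 -2.03 ± 0.39, adjusted p = 0.000153) and 125 in the vehicle cultures (log2 2.0 against parent). GLN3 and Arf4-1, above parent in HHQ cultures, were below it in vehicle cultures by 1.97 and 1.19, and Lhcf39_2 was 2.03 above it. Such genes were chosen as called against parent in opposite directions and called between HHQ and vehicle, so the direct call adds no support. Of the 26494 tested genes 746 met these conditions, 33 of them with a symbol. The direct difference was -4.02 for PTA1.

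Large changes also fell among genes without a symbol. Counts were absent in all parents for 31 tested genes that had at least 10 counts in every HHQ library, and 7 genes had the reverse. Of genes with a symbol, the former include Apm2-3 and the latter Lhcf36_2, which was not called. EMIHUDRAFT_436015 had none in the parents and 17.2, 17.1, 16 and 10.9 CPM in the HHQ cultures, at least 343-fold higher, taking 3 counts over the parent group as the floor (adjusted p = 8.54e-15). It had 12.6 CPM in the vehicle cultures. EMIHUDRAFT_121447 was at least 260-fold and EMIHUDRAFT_428706 at least 195-fold higher, and Apm2-3 at least 296-fold, with 3.03, 15.8, 22.3 and 11.3 CPM in the HHQ cultures.

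In the other direction, EMIHUDRAFT_227846 had 11, 14.4, 13.4 and 13.2 CPM in the parents and no count in the HHQ cultures, at least 494-fold lower by the same floor. Its neighbours by locus tag did likewise: EMIHUDRAFT_227847 was at least 202-fold lower, and EMIHUDRAFT_227845 had 27.2, 32.5, 35.6 and 30.5 CPM in the parents (2109 counts) and 1 count in HHQ replicate 2, a ratio of 3598 with a 95% counting interval of 645 to 142173.5. The vehicle mean was 0 CPM for EMIHUDRAFT_227846 and 0.0361 for EMIHUDRAFT_227847, so these tags were near 0 in vehicle cultures as well. EMIHUDRAFT_440331 was at least 430.0-fold lower. Intervals and floors cover counting error only.

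Among the genes with the most counts, EMIHUDRAFT_370423 fell, from 16672, 16760.4, 16774 and 16591 CPM to 1619, 1723, 1705 and 2705 (log2 -3.11 ± 0.26, adjusted p = 4.4e-11), with 21726 in the vehicle cultures. EMIHUDRAFT_439512 had 14116, 6441, 5366 and 5756 CPM in the parents and 6365, 9337, 577 and 1565 in the HHQ cultures, and it was not called (log2 -0.83, adjusted p = 0.341). With HHQ replicates 3 and 4 only it was at -3.01 and called (adjusted p = 0.00527). Without parent replicate 1 its change was -0.39, and without HHQ replicate 2 it was -1.56. It is another gene in which the pairs of HHQ libraries differed, by 7.33-fold. EFG1 was at -0.61 (adjusted p = 0.08), and it was called at between -0.77 and -0.8 without HHQ replicate 1 or 2 or parent replicate 3 or 4.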

How the data were processed

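The deposited table holds estimated counts per gene for 36 libraries (9 groups of 4); Salmon 0.12.0 and Trimmomatic 0.38 made it, per the submitters' processing notes. Which transcripts served as reference, and with which settings, the sources used here do not give. Of the values, 45.8% were not whole (tolerance 1e-06); they were rounded to whole counts. Library totals ran from 5679128 to 42602884 estimated counts. Of 37212 identifiers, 37202 matched the RefSeq annotation table of the CCMP1516 assembly, and 778 have a symbol.

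edgeR 4.0.16 (R 4.3.3) fitted 1 mean per group over all 36 libraries after filterByExpr and TMM scaling, with the quasi-likelihood test and Benjamini-Hochberg adjustment (27 residual degrees of freedom, median biological coefficient of variation 0.287). CPM values use the TMM-scaled library sizes, and log2 changes are given with their standard errors; intervals are at 95%. DESeq2 1.42.0 was an alternative, and the test was checked on simulated data. That simulation changed few genes, equally many up and down, so it could not show which scaling is right for these libraries. No pair of libraries within a group agreed within sampling noise (chi-square per gene 5.61 to 211). Shares of counts were compared with scipy 1.17.1.

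The comparison, the gene lists and the genes named were chosen with earlier results of these data known. The lists come from symbol prefixes, some extended after the identifiers were seen; the coat list leaves out SEC1, and Arp2/3 genes are listed by the ARP prefix. Named genes are the 12 higher and 12 lower symbol genes with the largest change among those called, with at least 1 CPM on average and no overlap of the groups; up to 3 genes with the smallest p per list; up to 3 genes without a symbol in each direction; up to 6 opposite to vehicle; up to 6 in each direction within 0.5 log2 of vehicle and not called against it; and the 5 genes with the most counts in each group. Further genes of a list that are given only with a log2 change lie outside that rule, as do the genes near parent, and were chosen after their values were seen. Copies by name, such as Arf4-1 and Arf4-2, PSBO-1 and PSBO_2, and the PGK genes, may share reads that Salmon divides. Their sequences were not compared. In the main fit, the p-values set each difference against a spread between cultures that was estimated over all 9 groups. They are not a measure of the spread in the parent or HHQ cultures alone.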

Additional observations from a re-analysis of the deposited data

Results flagged for a closer look

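Of 208 groups of 4 libraries tested for an outlying library (2 groups for each of 104 genes), 20 had a highest or lowest library whose gap to its neighbour exceeded Dixon's 95% critical share of the group's range; chance gives about 1 in 20. Among the HHQ cultures, replicate 4 stood highest for Lhcf32 (4428 CPM), Lhcf66 (1869 CPM), Lhcf21_1 (1554 CPM), Lhcf24 (655 CPM), Lhcf20_2 (185 CPM), Lhcf20_1 (93.9 CPM), EMIHUDRAFT_370423 (2705 CPM) and FBA2 (5.57 CPM). Among the parents, replicate 1 stood highest for EMIHUDRAFT_439512 (14116 CPM), Lhcf65 (11227 CPM), EMIHUDRAFT_443743 (4399 CPM), CIPK1 (475 CPM), ATPVG2 (239 CPM), CA1 (94.3 CPM) and MAPK3 (20.7 CPM), and lowest for FADS1 (25.6 CPM). A lone high parent library marked GSA1 (92.8 CPM) and Lhcf37 (0.153 CPM), a low HHQ library POLE1 (3.81 CPM), and a single HHQ count EMIHUDRAFT_227845 (0.0623 CPM).

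For 28 of the 104 named genes the change from parent at 72 h of HHQ differed from that at 24 h. The call was the direct test between the times in edgeR at an adjusted p under 0.05, with 7.84% of all tested genes called there. The named genes were chosen in part by their values in the same HHQ libraries at 72 h. Their count is therefore not to be compared with that share. In replication and repair the 72 h change was above the 24 h change by 3.3 log2 for POLA2, 2.7 for mutS, 2.69 for POLE1, 2.37 for RFC2, 2.19 for POLD2, 1.95 for LIG, 1.89 for Top6A, 1.49 for Top6B and 0.81 for RFC1. In carbon and nitrogen genes it was above by 4.16 for FBA2, 2.44 for GLN5, 2.38 for PYC1, 1.37 for IDH1, 1.23 for GLN3, 1.23 for 26PFK4 and 0.77 for ICL1. It was also above by 1.88 for CIPK1, 1.63 for AO, 1.28 for PTA1, 0.94 for Arf4-2, 0.85 for MAPK3, 0.8 for Arf4-1 and 0.79 for RhoGDI-2. The 72 h change was below the 24 h change for CAM1 (-1.47) and for the antenna genes Lhcf39_2 (-1.14), Lhcf49 (-0.83), Lhcf53 (-0.75) and Lhcf25_1 (-0.72).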

How the results depend on the processing

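The count of 8891 called genes was 9858 with DESeq2, 8802 with RLE size factors, 8603 without a filter on low counts and 8707 in the 8 libraries alone. With library totals alone, 8021 genes were higher and 1706 lower, so that 82.5% of called genes were higher, against 58.3% in the main result. That share was 50.6% with DESeq2, 50.1% with RLE size factors, 51.4% without the filter and 52.5% in the 8 libraries alone. Tested against a minimum fold of 2, 2188 genes were called, 1264 higher and 924 lower. With HHQ replicates 1 and 2 only, 3200 genes were higher and 2930.0 lower; with replicates 3 and 4 only, 4222 and 4473. The median of the antenna genes, -1.54, was -1.78 with HHQ replicates 1 and 2 only and -0.989 with library totals alone. Leaving out single libraries gave 7055 to 8485 calls, 4025 to 4456 higher and 2922 to 4078 lower, an antenna median of -1.72 to -1.51 and a difference in antenna share of -8.95 to -8.01 points. Of 104 named genes, 90 to 103 kept their direction and call under each alternative. ATPVG2 was at 0.01 with library totals alone (adjusted p = 0.965), and EMIHUDRAFT_443743, at 0.11 in the main result, was at -1.41 with HHQ replicates 3 and 4 only (adjusted p = 0.0329); the cause was not tested. For genes with few counts, depth limits what can be told.

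Deviations of same-numbered parent and HHQ libraries from their group means correlated at 0.293, -0.114, 0.236 and 0.0928. HHQ replicates 1, 3 and 4 correlated best with the parent of their own number, and replicate 2 with parent replicate 1 (0.263). With parent replicate 1, HHQ replicates 3 and 4 correlated at -0.381 and -0.167. The labels give no pairing, and the numbers were not taken to pair the samples. With the replicate block, 8335 genes were called, 4156 higher and 4179 lower. The antenna share, -8.31 points, had an exact sign-flip p of 0.125 over the 4 pairs, the smallest that 4 pairs allow.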
